A study of Mus musculus with 48 samples.

Results

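IGHV6-3 is 1 of 148 IGHV genes called in BCR heavy-chain libraries of the lacrimal gland (LG) and the spleen of B6 mice. Its members were all sequences whose V call named this gene, which were 4165 of 188868 sequences in 24 LG libraries and 130804 of 4645346 in 24 spleen libraries. They held 90964 of 2878417 LG counts (3.16%) and 393197 of 11666610 spleen counts (3.37%), where a count is a consensus sequence built from reads with a shared molecular identifier. The gene was chosen by the number of NOD-FMT mice whose LG shared its clonotypes and by their counts, so LG values of that group are given as a description, without a test. Tests were run on the spleens and on the LG of mice that had not received the transfer. Sequences with the same IGHV gene, the same IGHJ gene and an identical HCDR3 in amino acids formed a clonotype.

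The study asked how the gut microbiota of an autoimmune dry eye strain alters the B cell repertoire of the LG of conventional mice. All mice were C57BL/6 (B6). The NOD-FMT group (10 mice) received daily gavages for 3 weeks of feces from NOD.B10.H2b donors, aged more than 20 weeks, a strain with autoimmune sicca disease used as a Sjögren model, and the PBS-T group (9 mice) was gavaged with PBS on the same schedule. Recipients were 5 weeks old, and both groups had their fecal microbiota homogenized and then drank a mixture of ampicillin, vancomycin and metronidazole for 7 days before the transfer. A further 5 untreated B6 mice (NC) served as repertoire controls, so antibiotics and gavage were shared by NOD-FMT and PBS-T but not by NC. Each mouse gave an LG and a spleen library, and the microbiota came from a pool of donors, so the donors are not replicates.

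The variable part of an antibody heavy chain is assembled in each developing B cell from a V, a D and a J segment, and bases are removed and added where the segments meet. That junction encodes HCDR3, the loop that varies most between antibodies and often decides what is bound. Activated B cells may then replace IgM by another isotype, such as IgA, the isotype of mucosal and glandular secretions including tears, and may collect point mutations in the V segment. A short junction with few added bases can arise in many B cells independently, so clonotypes of this kind are often shared between animals.

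Ighv6-3 is annotated as an immunoglobulin V gene on the minus strand of chromosome 12 at chr12:114391712-114392169 (GRCm38, GENCODE M21). It has a leader exon (114392124 to 114392169) and a main exon (114391712 to 114392021) whose 3′ end enters HCDR3. Ighj3 (113429085 to 113429132) and Ighj1 (113429781 to 113429833) lie on the same strand. Every V call in the LG was allele IGHV6-3*01, and the spleens also held IGHV6-3*03. The germline ends that meet in an IGHV6-3 and IGHJ3 junction are shown because the shared clonotypes consist largely of them. Capitals mark the codon of the conserved cysteine before HCDR3 and of the tryptophan after it, both read 5′ to 3′ on the coding strand (GRCm38).
Ighv6-3, chr12:114391712-114391759: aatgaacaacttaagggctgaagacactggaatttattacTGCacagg
Ighj3, chr12:113429085-113429132: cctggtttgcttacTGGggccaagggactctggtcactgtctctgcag

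The most shared IGHV6-3 clonotype joined IGHJ3 and had the 7-residue HCDR3 TGDGFAY. Its HCDR3 was encoded by 16 different nucleotide sequences in the LG, of which 11 occurred in 1 mouse and 5 in 2 or more, and by 1 to 5 of them in a single LG. The 5 versions found in 2 or more LG are shown, each with the number of NOD-FMT mice whose LG held it. Capitals mark the bases that match neither the 3′ end of germline Ighv6-3 nor the 5′ side of germline Ighj3.
TGDGFAY in 6 LG: acaggCGACGggtttgcttac
TGDGFAY in 4 LG: acaggGGACGggtttgcttac
TGDGFAY in 2 LG, first: acaggCGATGggtttgcttac
TGDGFAY in 2 LG, next: acaggTGACGggtttgcttac
TGDGFAY in 2 LG, last: acaggAGATGggtttgcttac
Each of these carried 5 bases from the V end, 11 from IGHJ3 and 5 between them. They differed from each other only within those 5 bases, and each spelled the same amino acids.

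TGDGFAY also had relatives that differed in 1 residue. HCDR3 sequences of 7 residues joined to IGHJ3 with 0 or 1 residue different from TGDGFAY are called near-variants here, TGDGFAY included. The near-variants named by the rule are shown in the version held by most LG and then by most counts, with capitals as above.
TGQGFAY: acaggCCAGGggtttgcttac
TGNGFAY: acaggCAACGGAtttgcttac
TGWGFAY: acaggCTGGGggtttgcttac
TGLGFAY: acaggACTGGggtttgcttac
TADGFAY: acagCCGACGggtttgcttac
TWDGFAY: acCTGGGACGggtttgcttac
TYDGFAY: acTTACGACGggtttgcttac
TSDGFAY: acaAGCGACGggtttgcttac
TGDSFAY: acaggCGACTCgtttgcttac
TGDAFAY: acaggCGATGCTtttgcttac
TGDNFAY: acaggTGATAACtttgcttac
In these versions, variants of residue 3 (counted from the first T) kept the whole V end, and variants of residue 2 had lost 1 to 3 of its bases. Between 5 and 8 bases of each were matched to neither germline end.

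Nucleotide sequences that occurred unchanged in at least 3 mice within a tissue were discarded, as possible carry-over between libraries. This left 87556 IGHV6-3 counts in the LG and 353325 in the spleens. All other values followed this removal, except totals of the deposited rows and values given as from before it. After it, LG libraries held 40105 to 264365 counts and spleens 71859 to 2032338. PBS-T mouse 5 stood apart with 17213 LG clonotypes against 560 to 2504 in the other LG libraries. Identical sequences were counted between LG libraries before the removal, here and below. The LG of NC mice 2 and 3 shared 894 of them, 23.6% of the sequences in the smaller library. The LG of PBS-T mouse 5 shared 451 with NC mouse 3, 439 with NC mouse 4 and 378 with PBS-T mouse 7. Within NOD-FMT no pair of LG shared more than 22. Across groups, NOD-FMT mouse 4 shared 81 with PBS-T mouse 5 (3.07% of the smaller library) and NOD-FMT mouse 1 shared 45 with PBS-T mouse 3. The names under which the data were deposited, not the sample labels, mark 11 LG libraries as merged (6 NOD-FMT, 4 PBS-T and 1 NC) and no spleen. What was merged is not stated.

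IGHV6-3 made up the most clonotypes in the LG of NOD-FMT mice and the fewest in the LG of PBS-T mice, with wide overlap. It provided 0.748% to 4.19% of the clonotypes of an LG library in NOD-FMT (median 2.58%, n = 10), 0.831% to 1.84% in PBS-T (median 1.2%, n = 9), and 1.83%, 1.97%, 2.20%, 1.45% and 1.11% in NC mice 1 to 5. These shares rested on few clonotypes, 14 to 57 in NOD-FMT, 7 to 18 in PBS-T other than mouse 5 with 143, and 10 to 24 in NC. In the spleen it provided 1.69% to 2.70% in NOD-FMT (median 2.19%), 1.71% to 2.72% in PBS-T (median 2.52%) and 2.41%, 1.71%, 2.43%, 2.64% and 2.27% in NC mice 1 to 5. Ordered by median, the levels ran from NOD-FMT LG through PBS-T spleen, NC spleen, NOD-FMT spleen and NC LG to PBS-T LG, and the ranges of each pair of neighbours in that order overlapped. The spread over the LG of NOD-FMT mice was larger than the differences between most groups.

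By counts, the gene ranged over more than an order of magnitude in the LG. It held 0.272% to 10.7% of the counts in NOD-FMT (median 4.94%), 0.208% to 2.20% in PBS-T (median 0.696%), and 3.24%, 2.27%, 6.58%, 0.0811% and 0.372% in NC mice 1 to 5. In these bulk libraries, more cells with the gene and more RNA per cell cannot be told apart. Among all IGHV genes of its library it ranked first by counts in NOD-FMT mouse 9 and 3rd in mice 2, 4 and 6, but 35th of 101 in mouse 1. In the spleens it held 2.96% to 5.39% in NOD-FMT, 1.83% to 4.72% in PBS-T and 2.47% to 4.52% in NC. Within NOD-FMT, the 6 merged LG libraries had a median of 4.94% and the other 4 a median of 4.88%, and the ranges overlapped.

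**Figure D1:**
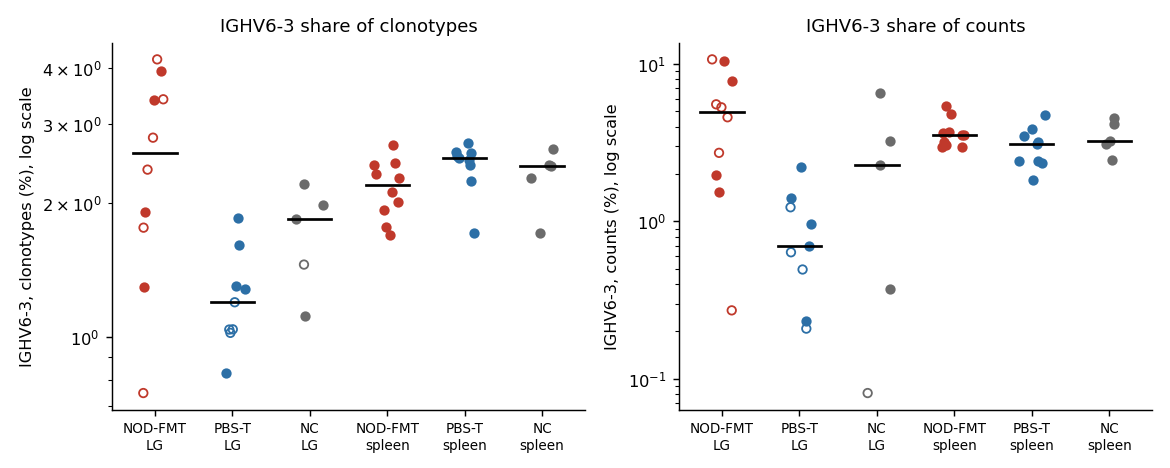
Share of clonotypes (left) and of counts (right) held by IGHV6-3 in each library, in percent on log axes, by group and tissue. Points are libraries, open points are LG libraries deposited under a name with the word merged, and bars are medians. The LG of NOD-FMT mice spread from 0.748% to 4.19% of clonotypes and the spleens of all groups sat between 1.69% and 2.72%.

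In the LG a single clonotype often carried much of the gene's signal. The largest IGHV6-3 clonotype held 21.9% to 71.6% of the IGHV6-3 counts of a NOD-FMT LG, 21.2% to 89.5% in PBS-T and 48.2% to 74.6% in NC. In the spleens it held 2.41% to 20.2%. The largest one was a near-variant of TGDGFAY in 6 of the 10 NOD-FMT LG (mice 1, 2, 3, 4, 6 and 10) and in no PBS-T or NC LG.

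The other genes of the IGHV6 family were mostly rare. IGHV6-6 was present in every library and provided a median of 1.70%, 1.33% and 1.62% of LG clonotypes in NOD-FMT, PBS-T and NC. IGHV6-4 was in no LG clonotype and at most 0.0165% of the clonotypes of a spleen, and IGHV6-7 was in 1 LG library, of NOD-FMT. Over the 24 spleens, the gene whose share of clonotypes varied most like that of IGHV6-3 was IGHV6-6 (Spearman's rho 0.94), before IGHV10-1 (0.90) and IGHV1-12 (0.81), where the median over 110 genes was 0.06. Over the 24 LG libraries the closest were IGHV10-3 (0.51), IGHV10-1 (0.49) and IGHV1-31 (0.48), and IGHV6-6 had a rho of -0.08. These correlations describe shares of the same libraries and were not tested.

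The share of IGHV6-3 among spleen clonotypes was compared between NOD-FMT and PBS-T mice, a tissue that the choice of the gene had not used. The mean log2 share was 0.17 lower in NOD-FMT (a fold of 0.891), with ranges that overlapped almost fully. An exact two-sided permutation test over the 19 mice gave p = 0.104, and 0.677 after Benjamini-Hochberg adjustment over 111 IGHV genes. A gene passed in 0.901% of that table (1 gene, and 13 at an unadjusted p under 0.05), so a difference of IGHV6-3 usage between the spleens was not shown.

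In mice without the transfer, the LG held a smaller share of IGHV6-3 clonotypes than the spleen of the same mouse. The LG share was lower in 13 of the 14 PBS-T and NC mice, the exception being NC mouse 2 with 1.97% in the LG and 1.71% in the spleen. The mean within-mouse log2 difference was -0.74 ± 0.51 (SD, n = 14), a fold of 0.598. It passed the exact sign-flip permutation test (two-sided p = 0.000366, adjusted p = 0.0046 over 88 genes). Of the 88 genes, 27.3% passed and 14.8% passed as lower in the LG, and the median difference over all 88 was -0.07. IGHV6-6 had a mean difference of 0.27 and did not pass (adjusted p = 0.255). IGHV6-3 stood 77th of 88 when the genes were ordered from the highest to the lowest difference.

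In smaller subsets of these mice the difference did not pass the adjusted test. The difference was -0.93 in PBS-T alone (adjusted p = 0.0672) and -0.40 in NC alone (adjusted p = 0.439), in exact permutation tests on 9 and 5 mice. All 9 PBS-T mice were lower in the LG, and their unadjusted p of 0.00391 is the smallest that exact sign flips of 9 mice allow. It was -1.09 in the 5 mice with a merged LG library and -0.55 in the other 9 (adjusted p = 0.227 and 0.083, same exact permutation test). With 5 mice the smallest p that sign flips allow is 0.0625, so those subsets could not pass. In NOD-FMT the LG share exceeded that of the own spleen in 6 of 10 mice (2, 3, 4, 6, 8 and 9), which was not tested because those LG chose the gene.

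By group means, which were not tested, IGHV6-3 clonotypes joined IGHJ3 more often than did clonotypes of the other genes in every group and tissue. IGHJ3 made up 30.8% ± 1.4 (SD, n = 10) of the IGHV6-3 clonotypes of NOD-FMT spleens, against 23.7% ± 0.45 of the clonotypes of all other IGHV genes. IGHJ4 was used less by IGHV6-3 (17.1% against 26.8%) and IGHJ2 more (41.4% against 34.2%). In the LG of NOD-FMT mice IGHJ3 reached 59.7% ± 15.7 of IGHV6-3 clonotypes, with a range from 35.0% in mouse 8 to 84.0% in mouse 9, and was 24.4% ± 3.3 in other genes. It was 36.8% ± 18 in the LG of PBS-T and 35.5% ± 9.0 in NC.

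HCDR3 joined to IGHV6-3 was shorter on average than in other genes, also without a test. The mean length over clonotypes was 8.77 to 9.68 residues in the spleens of NOD-FMT mice, and 11.1 to 11.8 in other genes. A 7-residue HCDR3 made up 11.9% ± 1.4 of IGHV6-3 clonotypes in NOD-FMT spleens, 12.5% ± 2.2 in PBS-T and 12.1% ± 0.90 in NC, whereas other genes had median shares of 3.65% to 3.83%. In the LG it was 34.2% ± 16.6 in NOD-FMT (12.0% to 57.1%), 15.2% ± 12.9 in PBS-T (absent in 3 of 9 libraries) and 28.5% ± 8.2 in NC.

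No difference in these general features between NOD-FMT and PBS-T spleens exceeded the spread between mice. The share joined to IGHJ3 was 30.8% and 30.9%, the 7-residue share 11.9% and 12.5%, and the share of clonotypes with an IgA sequence 3.06% and 2.85%. V mutations averaged 0.317 per clonotype in both. Each had an adjusted p of 0.998 in an exact two-sided permutation test, over 5 spleen features.

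Between the LG and the own spleen of PBS-T and NC mice, the 7-residue share went from 12.3% in the spleen to 20.0% in the LG in IGHV6-3 and from 3.85% to 3.22% in other genes. The within-mouse changes differed by 8.29 percentage points ± 12.8 (SD, n = 14, higher in IGHV6-3 in 10 mice). It did not pass (exact sign-flip permutation test, p = 0.0336, adjusted p = 0.0671 over 4 LG features). The same difference of differences was 7.83 points ± 14.9 for IGHJ3 (p = 0.0717, adjusted p = 0.0955, exact permutation). It was -3.85 points ± 17.0 for clonotypes with an IgA sequence (adjusted p = 0.405, exact permutation).

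V mutations were the LG feature that passed, when the change was taken as a difference. IGHV6-3 clonotypes carried 1.43 mismatches to the germline V gene in the LG and 0.317 in the spleen, against 2.33 and 0.762 in other genes. The rise in the LG was smaller in IGHV6-3 by 0.455 ± 0.62 mutations per clonotype (11 of 14 mice, exact sign-flip permutation p = 0.00867, adjusted p = 0.0347). IGHV6-3 started from a lower spleen level (0.317 against 0.762), and the rise as a ratio was not tested. By these means, the LG level was a larger multiple of the spleen level in IGHV6-3 than in other genes. A smaller rise relative to the spleen level is therefore not shown. The difference lost the call when any of 7 single mice was left out (highest adjusted p 0.0693, without NC mouse 3). It changed sign when counts took the place of clonotypes (0.918).

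**Figure D2:**
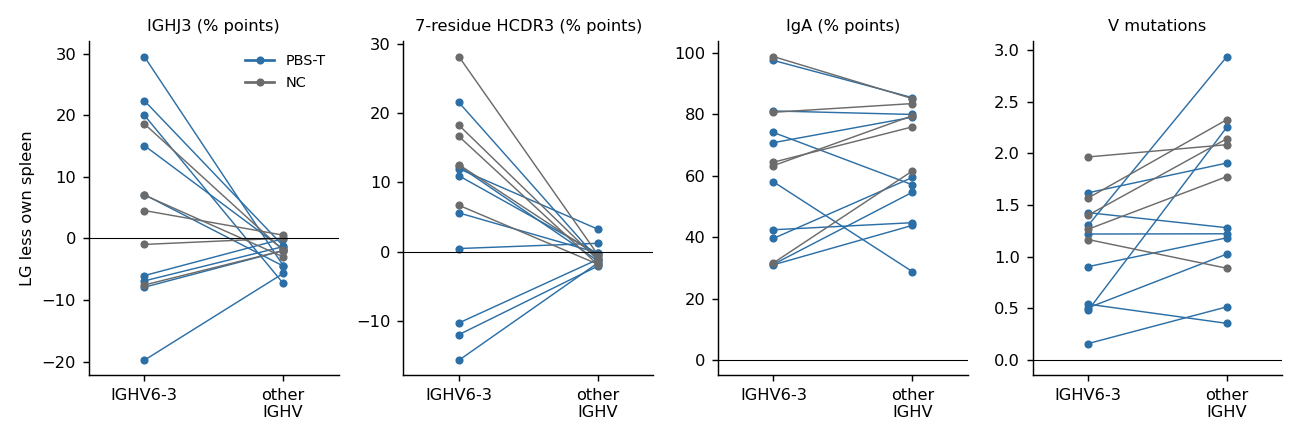
LG less own spleen in the 14 PBS-T and NC mice for IGHV6-3 and for all other IGHV genes, for the share of clonotypes joined to IGHJ3, with a 7-residue HCDR3 and with an IgA sequence (percentage points) and for V mutations per clonotype. Each line is a mouse. IGHV6-3 scattered widely around the narrow range of other genes in the IGHJ3 and 7-residue panels. The difference in mutations per clonotype was smaller in IGHV6-3 in 11 of 14 mice, from a lower spleen level.

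Sharing of IGHV6-3 clonotypes between LG was the property by which the gene was chosen and is given without a test. The LG of all groups held 512 distinct IGHV6-3 clonotypes, of which 455 were in a single LG and 57 in 2 or more. Within NOD-FMT, 23 of 245 clonotypes (9.39%) were in 2 or more LG, and of these 16 were joined to IGHJ3, 11 had IGHJ3 and 7 residues, and 10 were near-variants of TGDGFAY. Within PBS-T, 5 of 215 (2.33%) were shared, all of them by mouse 5 with mouse 7, 8 or 9, and none was a near-variant. Before the removal, the LG of PBS-T mouse 5 also shared 378, 139 and 77 identical sequences with those of mice 7, 8 and 9. Within NC, 12 of 74 (16.2%) were shared, all by mice 2 and 3, and none was a near-variant. The LG libraries of these 2 mice also shared 894 identical sequences before the removal. At least 1 IGHV6-3 clonotype was shared by 44 of 45 pairs of NOD-FMT LG, 3 of 36 pairs in PBS-T and 1 of 10 in NC. These shares and numbers of pairs depend on the clonotypes found per LG and on the mice per group, which were unequal. PBS-T mouse 5 alone held 143 of the 215 PBS-T clonotypes. The same numbers were not computed for clonotypes of other IGHV genes, so this sharing cannot be called particular to IGHV6-3.

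The near-variants were present in the LG of 10 of 10 NOD-FMT mice. They held 0.0540% to 6.45% of a library's counts (median 0.824%), lowest in mouse 8 (50 of 92606 counts, Wilson 95% interval 0.0410% to 0.0712%) and highest in mouse 6 (3457 of 53623, 6.24% to 6.66%). In PBS-T a single count was found, TGLGFAY in mouse 5 (0.000461%, interval 8.1e-05% to 0.00261%). No count was found in the other 8 PBS-T LG or in NC, where 3 counts of the library allow up to 0.00748% and 0.00529%. The groups did not overlap, as the choice of TGDGFAY from these LG fixes, so this is a description. Among the IGHV6-3 counts of a NOD-FMT LG the near-variants held 0.975% to 90.6% (median 35.0%).

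TGDGFAY itself was in 9 of 10 LG of NOD-FMT mice and in none of PBS-T or NC. It held 31 counts in mouse 1, 2 in mouse 2, 12 in mouse 4, 546 in mouse 5, 1227 in mouse 6, 1200 in mouse 7, 11 in mouse 8, 222 in mouse 9 and 318 in mouse 10. The LG of mouse 3 had none of 61561 counts, which allows up to 0.00487%. The removal of sequences found in 3 or more mice took away 4 unmutated TGDGFAY sequences with 2545 LG counts, each held by 5 to 6 NOD-FMT mice, so the values above are below those of the deposited rows (6114 counts). Before the removal it held 127, 61, 479, 998, 1434, 2293, 39, 295 and 388 counts in mice 1, 2 and 4 to 10, which were 0.0230% to 2.66% of the library. Mouse 3 had none before the removal either.

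In the spleen, near-variants were more frequent in NOD-FMT than in PBS-T, without overlap of the groups. They held 0.0366% to 0.370% of spleen counts in NOD-FMT (median 0.0705%) and 0.000719% to 0.0207% in PBS-T (median 0.00138%), where mouse 7 was highest and the next PBS-T mouse had 0.00417%. In NC mice 1 to 5 they held 0.00133%, 0.00511%, 0.00305%, 0.00261% and 0.00298%, all under the lowest NOD-FMT value. The numbers behind these shares were 84 to 2707 counts per spleen in NOD-FMT, 2 to 45 in PBS-T and 4 to 16 in NC. Group means differed by 5.20 in log2 units (share of counts plus 1 count), a scale that understates the change at low counts. The exact two-sided permutation test gave p = 1.08e-05, the smallest that 92378 splits of 19 mice allow, and an adjusted p of 5.41e-05 over the 5 spleen features. These spleens came from the same NOD-FMT mice whose LG had chosen TGDGFAY, so the p is not independent support for a difference between the groups.

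Sequences identical to one in any LG were also left out, which keeps their mutated or switched relatives. The near-variants then held 0.0211% to 0.151% of NOD-FMT spleen counts and 0.000719% to 0.0207% in PBS-T. With IgA sequences left out they held 0.00993% to 0.174% in NOD-FMT, and mice 8 and 9 of NOD-FMT then lay below PBS-T mouse 7. The difference was then 3.96 (adjusted p = 0.000271, exact permutation). As the LG of the same mice had chosen TGDGFAY, this p is not independent support either. Leaving out single mice moved the difference between 4.97 and 5.60.

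**Figure D3:**
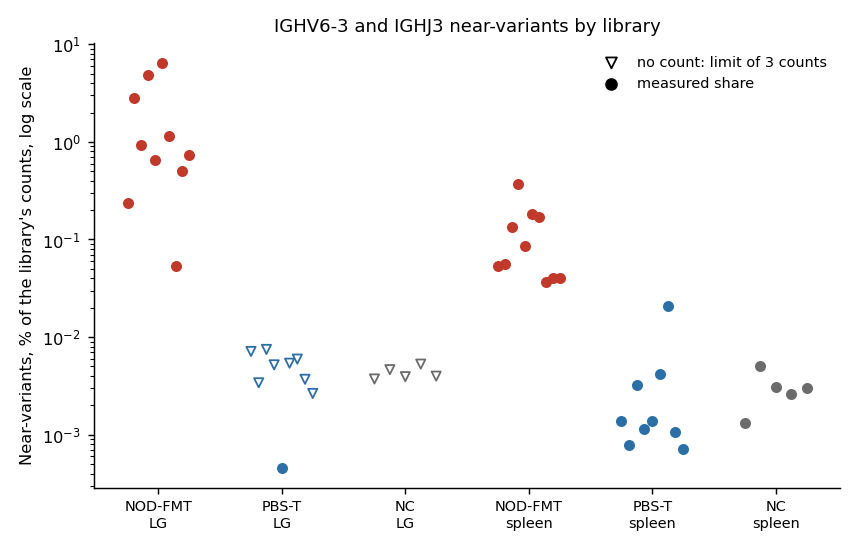
Share of each library's counts held by IGHV6-3 and IGHJ3 near-variants of TGDGFAY, in percent on a log axis, by group and tissue. Filled points are measured shares, and open triangles are libraries without a count, drawn at the share of 3 counts. All 10 NOD-FMT spleens (0.0366% or more) lie above all PBS-T and NC spleens (0.0207% or less).

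TGDGFAY was in the spleen of all 10 NOD-FMT mice, with 1749 counts in all. It held 0.00149% of counts in mouse 1 (7 counts, Wilson 95% interval 0.000721% to 0.00307%) to 0.131% in mouse 6 (323 counts, 0.117% to 0.146%), with a median of 0.0262%. No PBS-T spleen held it after the filter (1 count before it, in mouse 4), and 1 NC spleen held 1 count (mouse 2, 0.00128%). Mouse 3, whose LG had none, had 388 TGDGFAY counts in the spleen, on 30 sequences that shared a single HCDR3 nucleotide sequence, and 95.6% of these counts were IgA. Its spleen was also the deepest library, with 2032338 counts, and its TGDGFAY share of 0.0191% was below the group's median. In the other mice the spleen held 3 to 5 HCDR3 nucleotide versions. The share of spleen TGDGFAY counts on sequences also present in the own LG was 0% in mice 2, 3, 4 and 9 and 24.6% to 75.2% in the other 6. Before the filter it was 15.4%, 0%, 61.6% and 31.0% in mice 2, 3, 4 and 9, and 44.4% to 85.9% in the other 6.

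The number of different near-variants was also higher in NOD-FMT spleens. The 10 NOD-FMT spleens held 48 distinct HCDR3 and 7 to 19 per mouse, against 17 and 2 to 8 in PBS-T and 17 and 4 to 8 in NC. These numbers were not tested and rise with depth, and NOD-FMT spleens held 151402 to 2032338 counts against 71859 to 562589 in PBS-T. The 17 distinct near-variants of NOD-FMT LG were all found among the 48 of NOD-FMT spleens, which is 100% of the LG list and 35.4% of the spleen list. Of the 24 near-variants in PBS-T and NC spleens, 7 were also in the list of NOD-FMT LG.

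Variation was spread over the middle of the HCDR3. In NOD-FMT LG residue 2 had 5 alternatives in 7 mice, residue 3 had 4 in 6 mice and residue 4 had 3 in 6 mice. Residues 1, 5 and 6 had 2, 1 and 1 alternatives, and the last, a tyrosine encoded by IGHJ3, had none. In NOD-FMT spleens residue 3 took 18 alternatives and residues 2 and 4 took 10 and 9, each in 10 of 10 mice. PBS-T spleens had 14 alternatives at residue 3 in 9 of 9 mice, but 1 at residue 2 (1 mouse), 2 at residue 4 (3 mice) and none elsewhere. NC spleens had 11 at residue 3, 2 at residue 2 and 3 at residue 4. PBS-T and NC spleens had 83 and 48 near-variant counts in all against 6547 in NOD-FMT, so fewer alternatives are to be found at that depth.

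**Figure D4:**
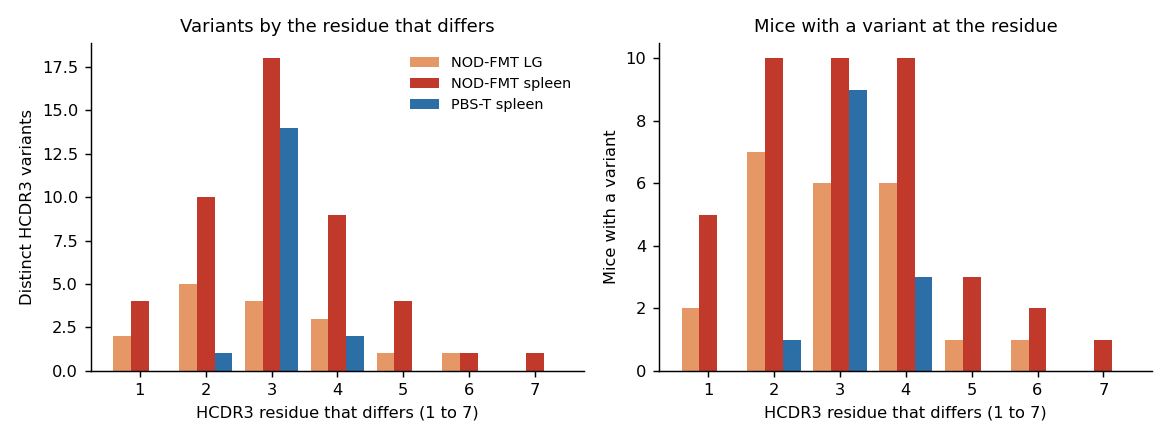
Distinct near-variants (left) and mice with at least 1 (right) by the HCDR3 residue that differs from TGDGFAY, for the LG and spleens of NOD-FMT mice and the spleens of PBS-T mice. Residue 3 had the most alternatives in both sets of spleens (18 and 14), and alternatives at residue 2 were in 10 NOD-FMT spleens and 1 PBS-T spleen.

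The named near-variants were spread unevenly over the mice. TGQGFAY had 7980 LG counts in 5 NOD-FMT mice, of which 7058 were in mouse 2 (2.67% of its library, the deepest LG), while its spleen counts were 185 over 7 NOD-FMT mice and 1 in each of a PBS-T and an NC spleen. TYDGFAY held 2232 of its 2314 LG counts in mouse 4 (3.79%). TWDGFAY was in 4 LG and TGDSFAY in 5, with highest shares of 0.901% and 0.649%, both in mouse 6. TGNGFAY had 2328 spleen counts in 7 NOD-FMT mice, of which 1706 in mouse 3, the deepest spleen, carried the nucleotide version shown above. TGDNFAY had 1257 LG counts, all in mouse 6 (2.34%), with 5.03 V mutations per count and no unmutated count, and 19 spleen counts over 3 NOD-FMT mice. TADGFAY was in 3 LG and TGDAFAY and TGWGFAY in 2, none above 0.376%, and TSDGFAY had 1 count in each of 2 LG.

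Outside this set, 3 IGHV6-3 clonotypes reached the LG of 4 or more mice. TRYFDV, a 6-residue HCDR3 joined to IGHJ1, was in 6 NOD-FMT LG (727 counts, at most 0.599%) and in no other LG. It was in all 10 NOD-FMT spleens with 2213 counts, and in 3 PBS-T and 2 NC spleens with 5 and 3 counts. SRYFDV, which differs from it in the first residue, was in 4 NOD-FMT LG (3267 counts, 3076 of them in mouse 7) and in 7 NOD-FMT spleens (579 counts), and had no count in a PBS-T or NC library. TSGKFDY joined to IGHJ2 was the only one of these found in the LG of other groups. It had 440 counts in PBS-T mouse 5 and 4 in all over a NOD-FMT and 2 NC LG, was in no spleen, and carried 3.44 V mutations per count. The other LG with TSGKFDY were those of NC mice 2 and 3 and NOD-FMT mouse 4. PBS-T mouse 5 shared 198, 451 and 81 identical sequences with them before the removal.

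Other large IGHV6-3 clones of the LG used other junctions. TFDGYYGAY with IGHJ3 held 6988 counts in NOD-FMT mouse 9 (4.06% of its library) and TGRNWARYWYFDV with IGHJ1 held 3530 in mouse 8 (3.81%). TGGGYYFAWFAY with IGHJ3 held 4118 counts in mouse 2 (1.56%). In controls, TYYGGAMDY with IGHJ4 held 2991 counts in NC mouse 3 (3.92%) and 341 in NC mouse 2 (0.527%), the pair that shared identical sequences. TEGDMG with IGHJ2 held 1904 in NC mouse 1 (2.36%) and TVTTLYYYAMDY with IGHJ4 held 1093 in PBS-T mouse 4 (1.89%). IgA held 93.9% or more of the counts in every one of these, and each except TVTTLYYYAMDY was 87.3% or more unmutated. Clonotypes widespread in spleens were different ones. TGLSMDY, TGGSFDY and TGGYFDV were each in 20 of 24 spleens, over all 3 groups, and in no LG, with 861, 116 and 55 counts.

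IgA made up 97.9% to 100% of the IGHV6-3 counts of NOD-FMT LG, 26.7% to 100% in PBS-T (median 95.0%), and 99.0%, 98.8%, 98.5%, 78.3% and 98.6% in NC mice 1 to 5. The low values were PBS-T mice 3 (26.7%, Wilson 95% interval 21.6% to 32.4%) and 8 (32%, 25.4% to 39.3%), both merged libraries with few IGHV6-3 counts. IgM held 72.9% of these counts in mouse 3 and IgG1 60.9% in mouse 8. PBS-T mouse 1, also merged and with 208 IGHV6-3 counts, had 99.0% IgA. Other genes of the LG had 94.0% to 98.6% IgA in NOD-FMT and 13.4% to 97.1% in PBS-T. Within single PBS-T mice the levels could differ in either direction, with 77.2% and 72.5% in other genes of mice 3 and 8, and 13.4% in mouse 9, whose IGHV6-3 counts were 78.6% IgA. In the spleens IgA was 5.08% to 12.6% of IGHV6-3 counts in NOD-FMT, 2.63% to 13.8% in PBS-T and 2.69% to 9.17% in NC, and IgM was 70.4% to 93.3% over all groups.

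The near-variants of NOD-FMT spleens had another isotype makeup than IGHV6-3 as a whole. Of their 6547 counts, 60.6% were IgA and 32.6% IgM, and of the 1749 TGDGFAY counts 73.8% were IgA and 13.7% IgM, with the rest on IgG1, IgG2b and IgG3. The 83 near-variant counts of PBS-T spleens were 96.4% IgM and 3.61% IgD with no IgA, which allows up to 3 of the 83 counts, and the 48 of NC spleens were 91.7% IgM and 2.08% IgA. In NOD-FMT LG 99.8% of 20812 near-variant counts were IgA. These are pooled counts over mice and were not tested. NOD-FMT mouse 3, the deepest spleen, gave 2707 of the 6547 spleen counts. The share of near-variant counts that were not IgA was highest in mouse 1 (204 of 252) and lowest in mouse 7 (239 of 953). Most of the large LG clones with other junctions, named above, were also mainly IgA in the spleen. IgA was 100% of 18 spleen counts for TFDGYYGAY, 96.8% of 125 for TGRNWARYWYFDV and 96.0% of 75 for TVTTLYYYAMDY. It was 89.8% of 49 for TYYGGAMDY and 100% of 17 for TEGDMG, but 13.0% of 23 for TGGGYYFAWFAY. A high IgA share in the spleen was thus not particular to near-variants. In single mice the IgA share of TGDGFAY in the spleen ranged from 14.3% of 7 counts in mouse 1 to 95.6% of 388 in mouse 3.

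**Figure D5:**
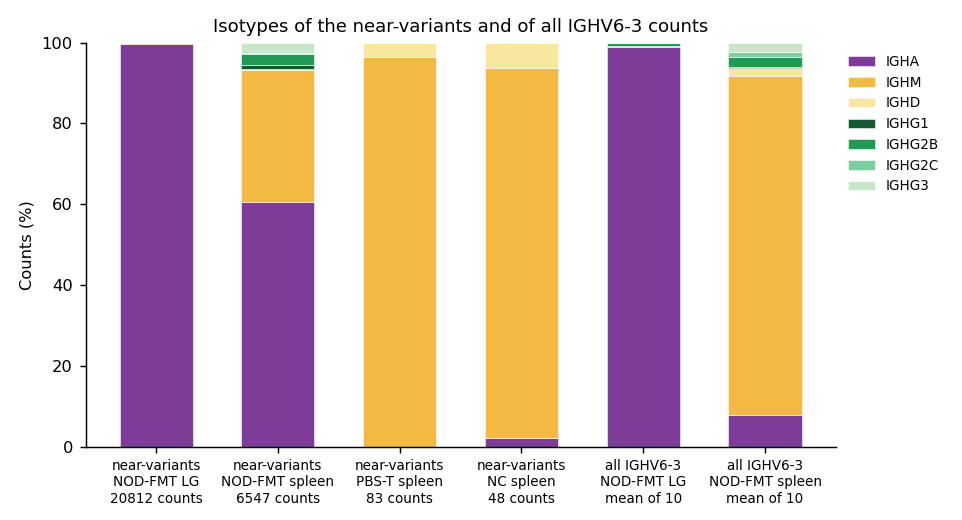
Isotypes, in percent of counts, of the near-variants of TGDGFAY in NOD-FMT LG and in the spleens of the 3 groups (pooled counts) and of all IGHV6-3 counts in NOD-FMT LG and spleens (mean of 10 libraries). Near-variants were 60.6% IgA in NOD-FMT spleens, where all IGHV6-3 counts averaged 7.86% IgA, and were mainly IgM in PBS-T and NC spleens.

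Few V mutations were found in IGHV6-3 of NOD-FMT LG. The mean per clonotype was 0.182 to 0.756 (median 0.415) in NOD-FMT, 0.632 to 1.89 (median 1.23) in PBS-T and 1.44, 1.88, 1.62, 1.80 and 2.20 in NC mice 1 to 5. NOD-FMT mice 3, 6 and 10 (0.736, 0.750 and 0.756) lay above PBS-T mouse 7 (0.632), and no NC mouse overlapped with NOD-FMT. Other genes of the same LG carried more, with medians of 1.86, 1.99 and 2.66. At least 1 unmutated sequence was present in 60.0% to 92.9% of the IGHV6-3 clonotypes of NOD-FMT LG, 42.9% to 87.5% in PBS-T and 33.3% to 58.8% in NC.

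Near-variants of NOD-FMT LG were unmutated in 84.7% of counts and carried 0.434 mutations per count, pooled over mice. That mean was raised by the 1257 TGDNFAY counts of mouse 6, which carried 5.03 mutations per count. In NOD-FMT spleens they were unmutated in 66.2% of counts and carried 0.726, and in PBS-T spleens in 86.7%. TGDGFAY in the spleens was unmutated in 23.8% of counts after the filter and in 59.9% before it, because the 8 removed sequences, with 1836 spleen counts, carried 0 or 1 mutation. Its mutated sequences reached 20 mismatches in a spleen and 16 in an LG.

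Part of the IGHV6-3 clonotypes of an LG recurred in the same animal's spleen. This held for 29.8% to 78.6% of them in NOD-FMT (median 60.0%), 7.69% to 87.5% in PBS-T (median 44.4%) and 20.0% to 60.0% in NC (median 50.0%). The medians for other genes were 33.8%, 30.4% and 35.8%. Averaged over the spleens of the other mice of the group, the share was 6.89% to 28.1% in NOD-FMT (median 20.4%). It was 0% to 29.2% in PBS-T (median 1.39%, highest in mouse 1) and 5.88% to 17.5% in NC (median 7.5%), so the ranges overlapped. The share in other mice was not computed for other genes, and sharing between NOD-FMT mice was how IGHV6-3 was chosen. These shares depend on the depth of the spleen library and rest on 7 to 143 clonotypes per mouse, and they were not tested.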

How the data were processed

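BCR heavy-chain cDNA of the LG and spleen of 24 mice was amplified with constant-region primers carrying molecular identifiers and with V gene primers, and sequenced on an Illumina instrument. The authors merged read pairs with PEAR, filtered them by quality, clustered them by identifier with Clustal Omega without singletons, and used IgBLAST for the segment calls and IMGT constant regions for isotypes. The labels name mm10. Deposited for each distinct sequence are its counts of consensus reads and its number of V mismatches to germline, which the authors had not normalized. Totals per library after filtering were 40105 to 264365 counts in the LG and 71859 to 2032338 in the spleen.

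Identical nucleotide sequences in 3 or more mice of a tissue were removed, and clonotypes (IGHV, IGHJ, HCDR3) were formed. The removal was modelled on a step of the study. It took 8.14%, 16.6% and 0.635% of the counts of NOD-FMT, PBS-T and NC LG and 9.79%, 11.2% and 7.72% of those of the spleens. Over each tissue as a whole, this was more than the study states for its own step. From the LG of NC mice it took less than the study's step did by the study's numbers per library. A library's usage of a gene was log2 of its clonotypes plus 0.5 over all clonotypes plus 1. Usage in 10 NOD-FMT and 9 PBS-T spleens was tested by two-sided exact permutation (92378 splits), over genes with a mean of at least 1 clonotype per library. LG and own spleen of the 14 PBS-T and NC mice were paired by the replicate number that the labels give within a group. The labels hold no name for a single mouse. These pairs were compared by two-sided exact sign-flip permutation (16384 flips). Genes with a median of at least 1 clonotype per library in each tissue were tested, a limit set after tests on simulated data. Adjustment was by Benjamini-Hochberg at 0.05. The near-variant share was tested as log2 of the share of the library's counts plus 1 count. LG feature tests required at least 5 IGHV6-3 clonotypes in the LG. Wilson's method gave 95% intervals, and for 0 counts the limit was 3 counts. Both cover counting error only. Replicates were separate mice.

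The members, the clonotypes and the lists were chosen with earlier results of these data known. Named were the IGHV6 genes, the 3 genes of most similar usage per tissue, IGHV6-3 clonotypes in 4 or more LG, the 10 with the highest share among those of 1% or more of an LG library, near-variants in 2 or more LG, and the 3 with most counts among those in the most spleens. Residues, mutations and clonotypes named beyond that were chosen after their values were seen. Alternatives changed the filter, weighting, depth, gene filter, test (edgeR 4.0.16, DESeq2 1.42.0) and mice. No V call named more than 1 gene, so that alternative was not run. Same-numbered NOD-FMT and PBS-T mice share only a number. Positions are those of GENCODE M21 (GRCm38). Scripts used R 4.3.3, SciPy 1.17.1, NumPy 2.4.6, pandas 2.3.3 and Matplotlib 3.10.9 in Python 3.11.15.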

Additional observations from a re-analysis of the deposited data

Results flagged for a closer look

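Single libraries were compared with the rest of their group over 44 combinations of group and measure. Chance nominally marks about 1 in 20, and 10 stood apart. A single count in a group otherwise without counts stands apart by construction. This holds for TGDGFAY in NC spleens and for near-variants in PBS-T LG. In the spleen, PBS-T mouse 7 lay below its group in IGHV6-3 usage (1.71% of clonotypes, next 2.23%) and above it in near-variants (0.0207% of counts, next 0.00417%). NOD-FMT mouse 4 was highest in near-variants (0.370%, next 0.184%). NOD-FMT mouse 2 was highest in 7-residue HCDR3 (15.5% of IGHV6-3 clonotypes, next 12.8%) and in V mutations (0.753 per clonotype, next 0.305), and NC mouse 2 also stood out in V mutations (0.718, next 0.239). NC mouse 2 was the only NC spleen with TGDGFAY, at 1 count (0.00128%), and its library was the shallowest of NC (78315 counts).

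In the LG, NOD-FMT mouse 6 stood above its group in TGDGFAY (2.29%, next 0.459%). NC mouse 4 had the lowest IgA share of IGHV6-3 in its group (78.3%, next 98.5%), on 46 IGHV6-3 counts. PBS-T mouse 5, the LG library with 17213 clonotypes, held the single near-variant count of its group (0.000461%).

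The difference between LG and own spleen in the 7-residue share of IGHV6-3, less that of other genes, was 3.12 points in PBS-T and 17.6 in NC mice, a difference of -14.5 points. It had p = 0.0395 and an adjusted p of 0.159 over 5 such contrasts, in an exact permutation of the group names over 14 mice, and fails the correction.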

How the results depend on the processing

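The log2 difference of near-variants between NOD-FMT and PBS-T spleens was 3.96 to 6.19 under 8 alternatives (adjusted p 5.41e-05 to 0.0195) and 4.97 to 5.60 without each mouse, which is no independent support, since the LG of the same mice chose TGDGFAY. Leaving out sequences found in an LG, leaving out IgA, TGDGFAY alone, the share of IGHV6-3 counts and the replicate block were added after the data were seen. Same-numbered NOD-FMT and PBS-T spleens correlated from -0.57 to 0.61 over 9 pairs (2 of them over 0.1), and 1 spleen correlated best with its own number, so they share only a number. With the replicate block the near-variant difference was 5.33 (adjusted p = 0.0195, exact permutation), that of usage -0.18, and that of spleen mutations turned to 0.0030.

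Spleen usage of IGHV6-3 passed under no alternative (adjusted p 0.54 to 0.934). It turned from -0.17 to 0.30 by share of counts and was -0.23 to -0.13 without single mice. The lower LG usage kept its call without each mouse (-0.82 to -0.67) and under 7 of 11 alternatives, with -1.93 by share of counts. It lost the call in NC alone (-0.40), PBS-T alone (-0.93), merged LG (-1.09) and other LG (-0.55), all with fewer mice. With 5 mice each, NC alone and merged LG could not pass. With no filter on genes 84 of 146 genes passed in place of 24 of 88, by share of counts 64, in other LG 7, and in PBS-T alone, NC alone and merged LG 0. In the spleen 1 gene passed, and 0 to 2.2 under the alternatives (2.2 is a mean over 10 thinned draws).

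Among spleen features without a call, the IGHJ3 difference turned to 1.61 points with clonotypes of at least 2 counts, 4.77 by counts, 0.0153 without the filter and 0.0999 with sequences in 2 or more mice removed. That of IgA turned to -0.0135 without near-variants. Without single mice these spanned -0.30 to 0.41 (IGHJ3), -0.98 to -0.0584 (7 residues), -0.151 to 0.382 (IgA) and -0.0487 to 0.0205 (mutations).

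LG features changed with several settings. The mutation difference turned to 0.30 with clonotypes of at least 2 counts and 0.918 by counts. It lost the call at -0.31 in other LG and at -0.31 with sequences in 2 or more mice removed. In merged LG it was -0.72, where sign flips of 5 mice allow no p under 0.05, so no call was possible. Without single mice it spanned -0.51 to -0.35. The 7-residue difference gained a call at 9.76 points without the filter (adjusted p = 0.0212, exact permutation) and without 3 of 14 single mice (6.73 to 10.005 over all). IgA turned to 9.02 with clonotypes of at least 2 counts, 8.61 by counts and 0.497 in other LG, and spanned -6.39 to -1.85 without single mice. IGHJ3 moved from 7.83 to 1.74 points with clonotypes of at least 2 counts and to 16.2 by counts, with no call under any of 7 alternatives (adjusted p up to 0.562, exact permutation). Without single mice it spanned 5.82 to 9.52 and gained a call without PBS-T mouse 2 (adjusted p = 0.0449, exact permutation). The cause was not tested. With 7 to 18 IGHV6-3 clonotypes in most PBS-T LG, a single clonotype moves an LG share by several points.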
